A study of Mus musculus with 2 samples.

Results

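Sperm-egg fusion factors are sperm membrane proteins without which mammalian sperm reach and bind the egg but do not merge with it. The 8 genes described here were Izumo1, Izumo2, Izumo3, Spaca6, Tmem81, Tmem95, Dcst1 and Dcst2, taken by symbol from the gene lists of both libraries. They are grouped under this name, and a need for fusion is not claimed here for Izumo2 or Izumo3. All 8 were among the 32285 genes counted, and each was detected in both libraries by UMIs, the molecular tags that count single RNA molecules. The data were 2 single-cell RNA libraries of dissociated mouse testis, 1 from Prm2 +/- and 1 from Prm2 -/- animals, counted at the 3' ends of polyadenylated RNA. Prm2 encodes protamine 2, which packs sperm DNA, and the heterozygous control itself carries 1 disrupted allele. The labels give no strain, age or number of animals, and no wild-type testis was analysed here. The comparison asks whether germ cells without protamine 2 carry other levels of these mRNAs at the same stage of development. With 1 library per genotype there is no replicate check and no test was made, so intervals cover counting error only and the 2 libraries, not the genotypes, are compared.

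The proteins that act in fusion work at the equatorial region of the sperm head after the acrosome has opened. IZUMO1 binds the egg receptor JUNO (the gene Izumo1r), and SPACA6 and TMEM81 form a complex with it. TMEM95 binds the egg surface independently of JUNO, and DCST1 and DCST2 are multipass membrane proteins related to worm and fly sperm proteins needed for fertilization. IZUMO2 and IZUMO3 share the Izumo domain with IZUMO1, and IZUMO3 is known for its part in building the acrosome. Transcription stops as the spermatid nucleus condenses, so the mRNAs are made in spermatocytes and round spermatids and those needed later are stored.

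The genes lie at 7 separate loci of the mm10 genome, and 3 promoter stretches are shown. Whether the levels below depend on these sequences was not tested. They are from RefSeq on GRCm38.p6, whose table held all 8 genes, and end at the base before the start site. Izumo1 is at chr7:45621811-45628823 on the plus strand, and its 250 upstream bases (chr7:45621561-45621810) are printed with a full cAMP response element, TGACGTCA, in capitals. This element begins 96 bases before the start. Tmem81 is at chr1:132506230-132508639 on the plus strand, and its upstream bases (chr1:132505980-132506229) are shown since it was the member furthest apart between the libraries. Dcst1 (chr3:89350219-89365253, minus strand) and Dcst2 (chr3:89361975-89377549, plus strand) are neighbours whose RefSeq starts face away from each other with 65 bases between them, at chr3:89365254-89365318, shown on the plus strand because both genes followed the same course.
Izumo1: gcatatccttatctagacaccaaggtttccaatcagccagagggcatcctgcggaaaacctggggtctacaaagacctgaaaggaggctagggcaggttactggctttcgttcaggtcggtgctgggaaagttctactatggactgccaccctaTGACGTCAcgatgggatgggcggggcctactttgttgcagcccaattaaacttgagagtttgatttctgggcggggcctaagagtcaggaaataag
Tmem81: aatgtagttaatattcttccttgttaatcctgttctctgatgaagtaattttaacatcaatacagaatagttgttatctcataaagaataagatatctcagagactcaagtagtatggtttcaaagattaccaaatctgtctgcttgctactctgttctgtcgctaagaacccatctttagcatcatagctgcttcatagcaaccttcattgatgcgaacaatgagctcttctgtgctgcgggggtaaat
Dcst1-Dcst2: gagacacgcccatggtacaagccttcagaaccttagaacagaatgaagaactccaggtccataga
Both strands of the 250 bases were searched for 5 motifs of regulators that work in germ cells. The full cAMP response element, bound by CREM in spermatids, was found in Izumo1 alone of the 8, against 1.55% of 32851 promoters of the same length. Its core, TGACG, which each full element also holds, was in Izumo1 and in Tmem95 (208 bases before the start), against 17.8% of promoters. Tmem95 also had the SOX motif ACAATGG, which begins 88 bases before the start and is in 3.02% of promoters. Spaca6 had the RFX motif GTTGCCA on the minus strand, which begins 54 bases before its RefSeq start and is in 3.66% of promoters. The Spaca6 window (chr17:17830725-17830974) lies inside the gene span printed below, which is from GENCODE and begins further upstream. None of the members had the MYB motif AACTGTC, which 2.88% of promoters hold. The windows of Izumo2, Izumo3, Tmem81, Dcst1 and Dcst2 held none of the 5. The Izumo2 gene (chr7:44708742-44719844, plus strand), Izumo3 (chr4:92144329-92147234, minus strand), Spaca6 (chr17:17827158-17843009, plus strand) and Tmem95 (chr11:69876684-69878018, minus strand) complete the set.

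There were 15210 heterozygous barcodes (median depth 1882.5 UMIs) and 22885 knockout barcodes (median depth 3716 UMIs), both above the 15000 cells that the labels give as loaded, so a barcode here may not stand for 1 loaded cell. After filters and removal of called doublets (3.07% in the heterozygous library, 15.7% in the other) 14576 and 18963 were kept, of which 9696 and 17377 were germ cells that could be put in order, and 88 barcode sequences occurred in both libraries. The targeted gene Prm2 was at 4312 CPM in heterozygous and 7.53 CPM in knockout round-spermatid-like cells, where CPM are the UMIs of a gene scaled to a common total over the summed cells. Germ cells were placed along a diffusion pseudotime computed without the 8 members and cut into 12 bins of equal cell number, each with 561 to 1026 heterozygous and 1230 to 1695 knockout cells. Bin 1 held early-spermatocyte-like cells with some spermatogonial genes, bins 2 to 4 pachytene and later spermatocytes (Piwil1, Pou5f2, then Ccna1), bins 5 to 9 round spermatids (Acrv1, Tssk1) and bins 10 to 12 elongating spermatids (Tnp1, Prm1). These names rest on the marker levels of each bin, since clusters left unnamed held 75.9% of the cells in bin 2, 55.9% in bin 3, 21.5% in bin 8 and 56.1% in bin 9. The libraries differed in depth along this order. In bins 5 to 7 the median was 2705, 2004 and 1620 UMIs in the heterozygous and 4293, 4725 and 3795 in the knockout cells, whose part in the differences below was not tested.

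All 8 mRNAs were low in bins 1 to 3 and highest in spermatids, but they followed 3 courses. Tmem95, Dcst1 and Dcst2 were highest in bins 6 or 7, among early and middle round spermatids, and were nearly gone by bin 11. Spaca6, Tmem81 and Izumo1 were highest in bins 8 or 9 and then also fell away. Izumo2 and Izumo3 remained high in the sums of bins 11 and 12, though not evenly over the clusters of elongating-spermatid-like cells. The bin of the highest level differed between the libraries by at most 1 bin for each of the 8 genes.

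**Figure D1:**
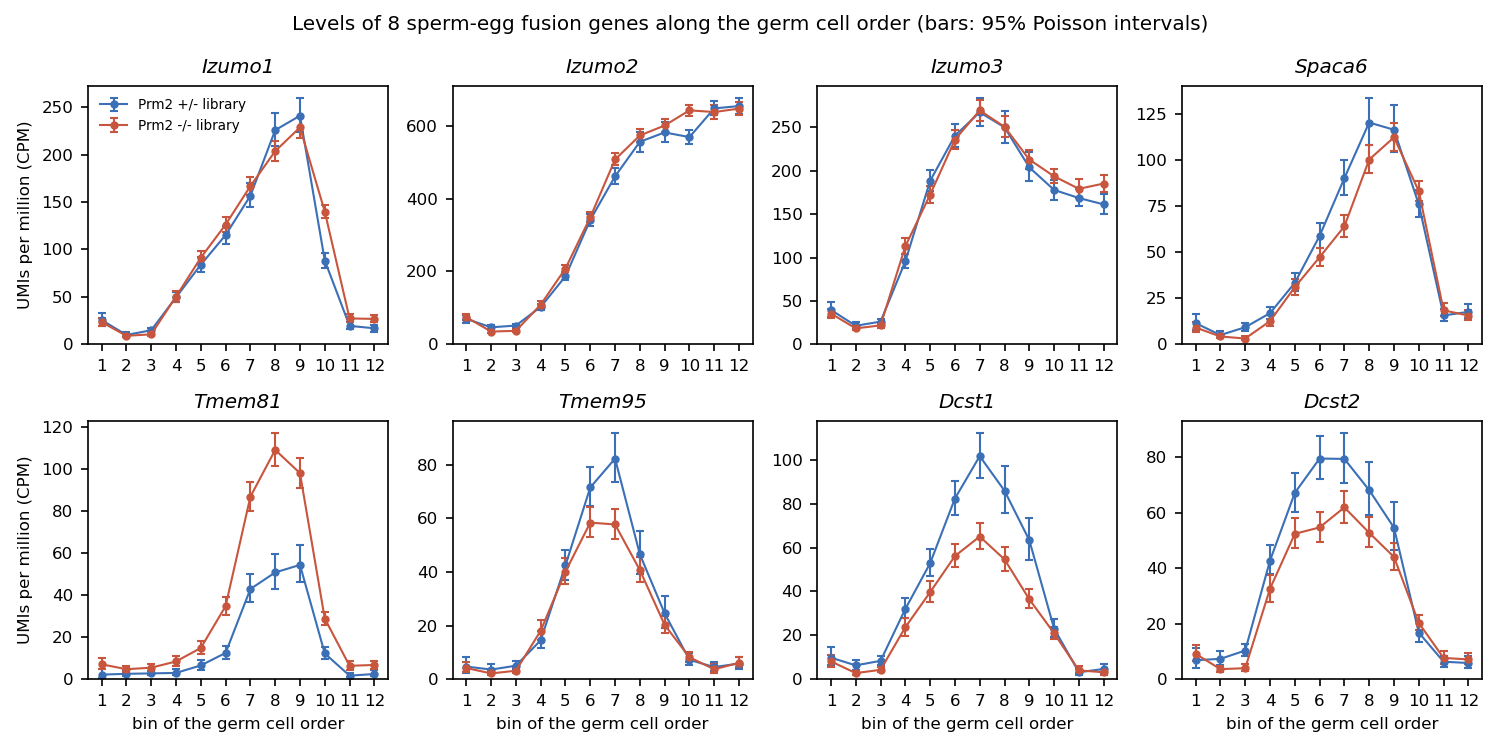
Level of each of the 8 genes (CPM, vertical axis) in the 12 bins of the germ cell order (horizontal axis) in the Prm2 +/- (blue) and Prm2 -/- (red) library; points are summed UMIs of a bin and bars 95% Poisson intervals. From bin 4 on the curves of both libraries lie close together for Izumo2 and Izumo3. The knockout curve is the higher one for Izumo1 in bins 10 to 12 and for Tmem81, and the lower one for Dcst1 in bins 2 to 9.

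Izumo1, the sperm ligand of JUNO, was at 9.81 CPM in heterozygous and 8.91 CPM in knockout cells of bin 2. It then went up without a break over bins 4 to 9, from 49.4 and 50.3 CPM in bin 4 through 156.6 and 166.8 CPM in bin 7 to 241 (95% interval 223 to 260) and 229 (218 to 240) CPM in bin 9. The knockout interval of bin 9 lay above that of bin 8 (193 to 214), while in the heterozygous library the intervals of bins 8 and 9 overlapped. In bin 10 the level was 88.3 CPM in heterozygous and 139.9 CPM in knockout cells, and in bin 12 it was 16.8 and 26.7 CPM. The drop set in at bin 10 in both libraries and was less deep there in the knockout one. In that bin the median log2 ratio of knockout over heterozygous over all genes was 0.21. The libraries also differed there in Acrv1 (225 CPM in heterozygous and 345 in knockout cells) and Prm1 (50762 and 35822 CPM). The part of these differences in the Izumo1 levels was not tested.

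Spaca6, whose protein sits in the complex with IZUMO1, had its highest levels slightly apart, at 120.6 CPM in bin 8 of the heterozygous and 112.6 CPM in bin 9 of the knockout library. The intervals of bins 8 and 9 overlapped in both libraries. It still stood at 76.2 and 83.3 CPM in bin 10 before the levels of 15.7 and 18.4 CPM in bin 11. Across the 24 bin sums of both libraries, the levels of Izumo1 and Spaca6 on the log2(CPM + 10) scale had r = 0.96, a description of points that share library, depth and free RNA.

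Tmem81, the third protein of that complex, was the latest to appear. Heterozygous cells had 2.93 CPM in bin 4, 12.4 CPM in bin 6 and 42.9 CPM in bin 7, and knockout cells had 8.38, 34.7 and 86.7 CPM in the same bins. The highest values were 54.3 CPM (46.1 to 63.6) in bin 9 of the heterozygous and 109 CPM (101 to 117) in bin 8 of the knockout library. By bin 11 it was at 1.64 and 6.31 CPM. Its window of high level was narrow, with 3 bins (7 to 9) above 40 CPM in the heterozygous library.

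Tmem95, which acts on the egg surface, reached 82.3 CPM (73.5 to 91.9) in bin 7 of the heterozygous library. In the knockout library bins 6 and 7 were level at 58.4 and 57.7 CPM. It was already down to 24.5 and 20.2 CPM in bin 9, where Izumo1 was at its highest, and only 21.9% of its heterozygous and 31.1% of its knockout UMIs along the order came from bin 8 or later. For Izumo1 that share was 48.0% and 59.7%. The mRNAs of these 2 egg-binding proteins were thus offset along the order in both libraries.

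Dcst1 was highest in bin 7 of both libraries, at 101.8 CPM (92.0 to 112) in heterozygous and 65.1 CPM (59.4 to 71.2) in knockout cells. Dcst2 was highest at 79.6 CPM in bin 6 of the heterozygous and 61.96 CPM in bin 7 of the knockout library, and the intervals of bins 6 and 7 overlapped in both. Both were near 3 to 8 CPM in bin 11. Over the 24 points Dcst1 and Dcst2 had r = 0.98, and Tmem95 had r = 0.94 with Dcst1 and r = 0.95 with Dcst2. The annotated genes overlap by 3279 bases on opposite strands at the 5' side of Dcst1, while the 3' ends that this assay counts lie outside the overlap. How strand was used in counting is not given in the sources used here.

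Izumo3, the acrosome-linked family member, was highest in bin 7 at 267 CPM in heterozygous and 269.6 CPM in knockout cells. It declined to 169 and 179 CPM in bin 11 and was still at 161 and 185 CPM in bin 12, among condensing spermatids. Izumo2 had no decline over the bins. It went from 102.5 and 108.7 CPM in bin 4 to 582 and 601 CPM in bin 9, and stayed between 569 and 654 CPM in bins 10 to 12 of both libraries. The clusters of elongating-spermatid-like cells differed more. In cluster 13 Izumo3 was at 48.2 CPM in heterozygous and 50.7 CPM in knockout cells, and Izumo2 at 401 and 367 CPM. Cluster 1 had 202 and 200 CPM of Izumo3 and 710 and 703 CPM of Izumo2. Cluster 14 had 193 and 215 CPM of Izumo3 and 648 and 672 CPM of Izumo2. The r of Izumo2 was 0.91 with Izumo3, 0.63 with Izumo1 and 0.39 with each of Tmem95, Dcst1 and Dcst2.

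**Figure D2:**
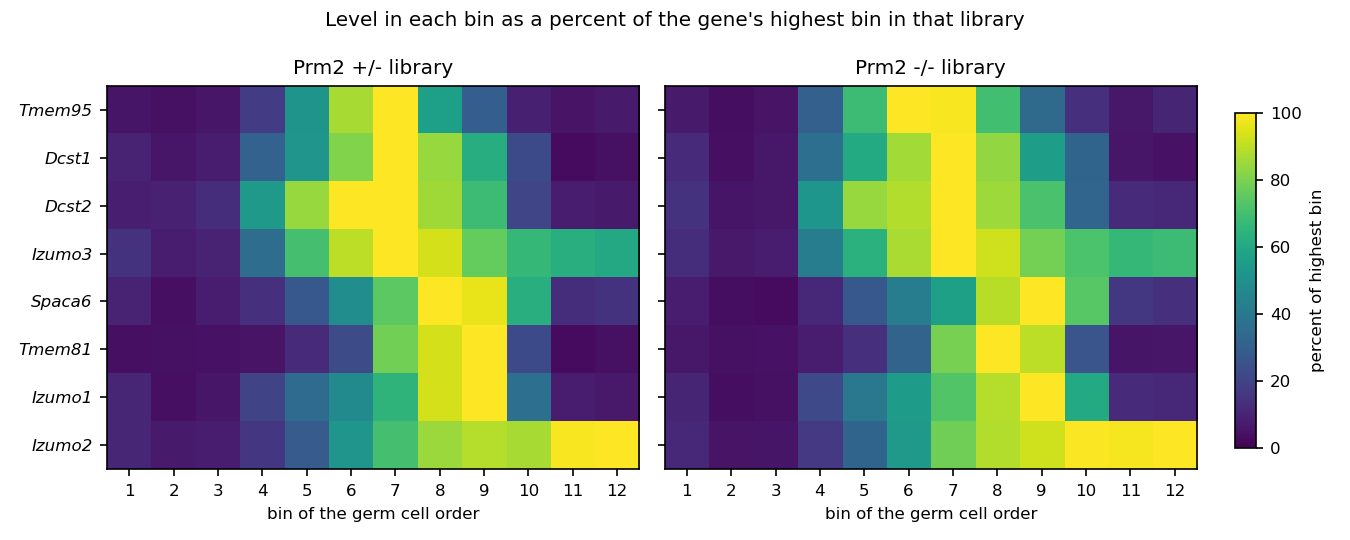
Level of each gene in each bin (horizontal axis) as a percent of its own highest bin in the same library (colour), for the Prm2 +/- library (left) and the Prm2 -/- library (right). From top to bottom the brightest cells move from bins 6 and 7 (Tmem95, Dcst1, Dcst2) over bins 8 and 9 (Spaca6, Tmem81, Izumo1) to bins 10 to 12 (Izumo2) in both panels.

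Free RNA from broken cells adds UMIs to every droplet, so the levels were set beside those of Sertoli-like cells, the somatic nurse cells, which should lack these mRNAs. Sertoli-like droplets held 63.7 Izumo1 UMIs per 1000 cells in the heterozygous and 98.9 in the knockout library, against 1015 and 1082 in bin 9. Izumo1 was at 130.1 and 130.5 per 1000 cells in bin 11 and at 113 and 137 in bin 12. These are much nearer the Sertoli-like values, and the part of free RNA in the Izumo1 ratios of bins 11 and 12 was not tested. For Tmem81 the values were 16.6 and 35.5 per 1000 Sertoli-like cells against 229 in heterozygous bin 9 and 519 in knockout bin 8. The bin 2 values of Izumo1, 83.8 and 67.3 per 1000 cells, were near the Sertoli-like ones, as were those of Tmem81 at 21.4 and 35.4, and these are read as background and not as expression. In bin 3 the heterozygous library held more than its Sertoli-like cells, with 159.9 per 1000 cells for Izumo1 and 111.5 against 30.5 for Dcst2. The knockout library did not, with 76.0 for Izumo1 and 28.5 against 29.2 for Dcst2.

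Shares of cells with a UMI were compared after thinning each cell to 2500 UMIs and leaving out shallower cells. For Izumo1 in bin 9 the share was 43.6% (37.0 to 50.3) of 225 heterozygous and 44.6% (40.8 to 48.5) of 672 knockout cells, against 42.6% and 43.4% unthinned. In Sertoli-like cells it was 15.1% of 53 and 10.5% of 237, with medians of 957 and 1562 UMIs before thinning. For Tmem81 in bin 8 it was 11.8% (7.72 to 17.1) of 203 heterozygous and 24.4% (21.1 to 27.9) of 640 knockout cells, against 14.0% and 29.3% unthinned. Sertoli-like cells had it in 0 of 53 heterozygous cells, where 3 cells, the limit taken for a count of 0, would be 5.66% and the Clopper-Pearson interval reaches 6.72%, and in 3.80% of 237 knockout cells. For Dcst1 in bin 9 the share was 17.3% (12.6 to 22.9) in heterozygous and 7.59% (5.70 to 9.86) in knockout cells, with 19.8% and 13.8% unthinned and 3.77% and 2.53% in thinned Sertoli-like cells. The share for Izumo2 in bin 12 was 77.5% and 78.8%. The thinned shares of Tmem81 and Dcst1 stood in the same order between the libraries as the CPM of those bins, though hardly apart for Dcst1 in bin 6. Those of Izumo1, Izumo2 and Dcst2 stood in the opposite order to the CPM, with overlapping intervals, and no order is read from them.

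In round-spermatid-like cells (4287 heterozygous and 5930 knockout cells) 1 of the 8 members, Tmem81, was at least 2-fold apart, and the other 7 were within 1.5-fold. All 8 passed the size rule of 50 CPM in at least 1 library and 100 UMIs over both. Of all 3962 genes under that rule 1.89% were at least 2-fold apart and 1.19% were at least 2-fold higher in the knockout library. Tmem81 passed the 50 CPM minimum through the knockout library alone, where it was high, and Dcst1 and Tmem95 through the heterozygous one alone, so nothing is read from 1 of 8 beside those shares. Dcst1, Dcst2 and Tmem95 had lower levels in the knockout library, Izumo1 and Izumo2 somewhat higher ones, and Spaca6 and Izumo3 nearly equal ones. The median log2 ratio over all genes was 0.00.

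**Figure D3:**
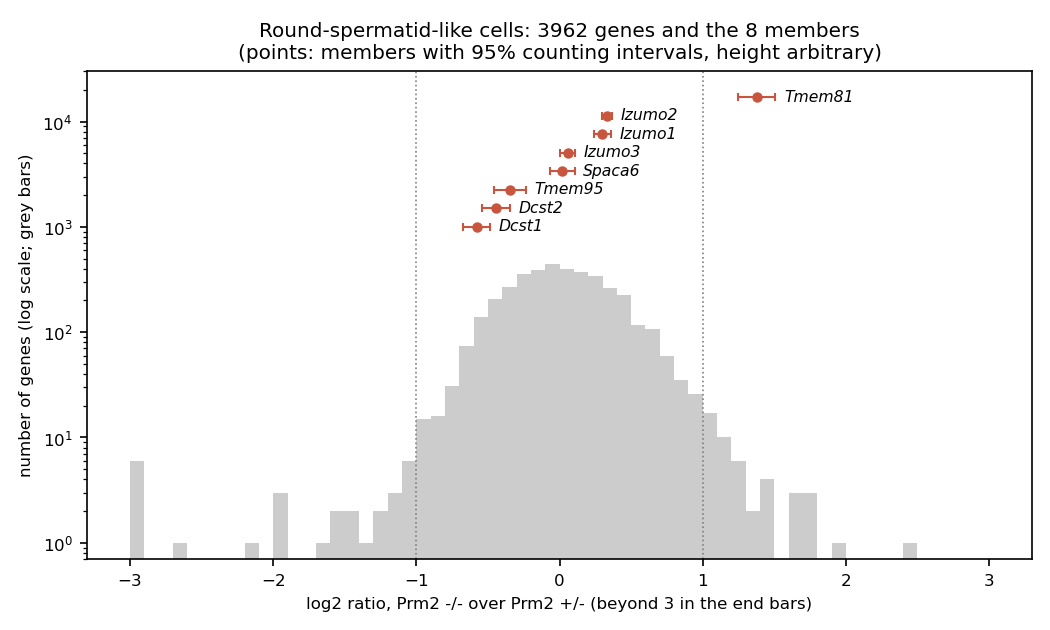
Log2 ratio of the Prm2 -/- over the Prm2 +/- level in round-spermatid-like cells (horizontal axis) for 3962 genes (grey bars, number of genes on a log axis) and for the 8 members (red points with 95% counting intervals; their height has no meaning). Tmem81 at 1.38 lies past the dotted 2-fold line, and the other members lie between -0.58 and 0.33, inside the bulk of the grey bars.

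Tmem81 was at 26.8 CPM (24.6 to 29.0, 592 UMIs) in heterozygous and 69.5 CPM (66.8 to 72.2, 2618 UMIs) in knockout round-spermatid-like cells. The fold was 2.60, a log2 ratio of 1.38 (1.25 to 1.51). Its rank among all genes is not read, since it passed the 50 CPM minimum through the knockout library alone. Clusters 3, 4, 5, 8 and 9 made up the class, and they were filled unequally: the heterozygous class was mostly from clusters 9 and 3 (31.2% and 26.9%), and the knockout class from clusters 5 and 4 (28.8% and 24.4%). Within each of the 5 the knockout level of Tmem81 was the higher one, but clusters 8 and 9 held few of its UMIs. Cluster 8 held 21 UMIs in 608 heterozygous and 49 in 1286 knockout cells. Cluster 9 held 29 UMIs in 1339 heterozygous and 21 in 393 knockout cells. Sertoli-like cells held 18 UMIs in 1083 heterozygous and 28 in 789 knockout cells. The Tmem81 ratios of clusters 8 and 9 are therefore given but not read. The log2 ratio was 1.09 in cluster 3, 1.70 in cluster 4, 0.96 in cluster 5, 0.86 in cluster 8 and 0.67 (-0.21 to 1.53) in cluster 9, where the interval holds 0.

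Along the order the knockout level of Tmem81 was above the heterozygous one in all 12 bins, but in bins 1 to 4, 11 and 12 it was at 8.53 to 29.3 UMIs per 1000 heterozygous and 20.3 to 39.5 per 1000 knockout cells, beside the 16.6 and 35.5 of Sertoli-like cells, and those ratios are not read. In bins 5 to 10 the log2 ratio ran from 0.85 in bin 9 to 1.48 in bin 6. In bins 7, 8 and 9, which hold most of its UMIs, the ratios were 1.02 (0.77 to 1.27), 1.10 (0.85 to 1.37) and 0.85 (0.60 to 1.11). It was the member 2-fold apart in bin 7 (1 of 8 passing, with 2.23% of all genes), where it passed the minimum through the knockout library alone and nothing is read from the share. In bin 8, where it passed in both libraries at 50.7 and 109 CPM, it was 1 of 7 passing, with 2.26% of all genes. Sertoli-like cells had 12.8 and 15.2 CPM of Tmem81, a log2 ratio of 0.25 (-0.65 to 1.19), an interval that holds 0 and also the ratios of bins 7 to 9. The UMIs per 1000 cells were 184 to 229 in heterozygous and 463 to 519 in knockout cells of those bins. The part of free RNA in these ratios was not tested.

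The genes on either side of Tmem81 were near absent. Rbbp5, a subunit of histone methyltransferase complexes, ends 570 bases before it on the same strand and had 1.31 and 0.93 CPM in round-spermatid-like cells (29 and 35 UMIs, log2 ratio -0.50, -1.25 to 0.26). Cntn2, on the other strand behind it, had 2 UMIs in each library. In that class the interval of Rbbp5 did not reach the ratio of Tmem81, and Cntn2 had too few UMIs to compare. In elongating-spermatid-like cells Rbbp5 had 3 and 16 UMIs, a log2 ratio of 2.11 (0.31 to 4.54) whose interval holds the 1.67 of Tmem81 there.

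Dcst1 was at 74.3 CPM (70.8 to 78.0) in heterozygous and 49.7 CPM (47.5 to 52.0) in knockout round-spermatid-like cells, a log2 ratio of -0.58 (-0.68 to -0.48). It passed the 50 CPM minimum through the heterozygous library alone, so its rank among all genes is not read. Dcst2 was at 69.5 CPM (66.1 to 73.1) and 51.0 CPM (48.8 to 53.4), a ratio of -0.45 (-0.54 to -0.35) that 10.6% of genes reached. The knockout level was the lower one in each of the 5 clusters for both genes, from -0.14 to -0.93 for Dcst1 and from -0.16 to -0.48 for Dcst2. The interval held 0 for Dcst1 in cluster 8 (-0.38 to 0.10) and for Dcst2 in clusters 5 (-0.37 to 0.06) and 8 (-0.40 to 0.08). In bins 4 to 9 the ratio of Dcst1 ran from -0.41 to -0.80 and that of Dcst2 from -0.31 to -0.54, all with intervals below 0. From bin 10 on every interval of both genes held 0.

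Adam15, a membrane metalloprotease gene 222 bases beyond the 3' end of Dcst1 on the same strand, was at 11.3 and 5.52 CPM, a log2 ratio of -1.04 (-1.31 to -0.77). It was looked at because its place next to Dcst1 made it the nearest gene, it was under the 50 CPM minimum, and it was named after its values were seen. Rasip1, which overlaps the last 1336 bases of Izumo1 on the same strand and could share reads with it, had 7.73 and 5.76 CPM.

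Tmem95 was at 52.7 CPM (49.7 to 55.8) in heterozygous and 41.4 CPM (39.4 to 43.5) in knockout round-spermatid-like cells, a log2 ratio of -0.35 (-0.46 to -0.24). Among bins 4 to 9 the gap was widest in bin 7, with -0.51 (-0.73 to -0.30), and it was not detectable in bins 8 to 12. Spaca6 was at 77.4 and 78.4 CPM in the class, a ratio of 0.02 (-0.07 to 0.11). Its CPM was lower in the knockout library in bins 6, 7 and 8, at -0.32, -0.49 and -0.26. On CPM, class and bins thus gave different answers for Spaca6, and the unequal filling of the class by stage stands beside this. In cells thinned to 2500 UMIs the intervals of the Spaca6 share were apart in bin 7. They were 15.7% to 24.9% in heterozygous and 10.2% to 15.2% in knockout cells. The intervals overlapped in bins 6 and 8, and in bin 8 the knockout share was the higher one, at 23.1% against 21.7%. The lower Spaca6 level of bins 6 and 8 therefore rests on CPM alone.

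The class ratios of Izumo1 and Izumo2 also exceeded those of bins 4 to 9. These bins do not match the class exactly, since bin 4 was 66.7% late-spermatocyte-like and bin 10 was 35.5% round-spermatid-like. Izumo1 was at 146.4 CPM in heterozygous and 180.2 CPM in knockout round-spermatid-like cells, a log2 ratio of 0.30 (0.24 to 0.36), whereas its ratios in bins 4 to 9 lay between -0.15 and 0.13. In bin 10 its ratio was 0.66 (0.51 to 0.81), above that of the class. Izumo2 was at 409 and 514 CPM, a ratio of 0.33 (0.29 to 0.37), against 0.03 to 0.16 in bins 4 to 9 and 0.18 in bin 10. Izumo3, at 227 and 236 CPM, had a ratio of 0.06 (0.01 to 0.11) and bin ratios from -0.13 to 0.24. Averaging bins 4 to 9 equally, an alternative added after the data were seen, gave 0.02 for Izumo1, 0.08 for Izumo2, -0.28 for Spaca6 and 1.19 for Tmem81.

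**Figure D4:**
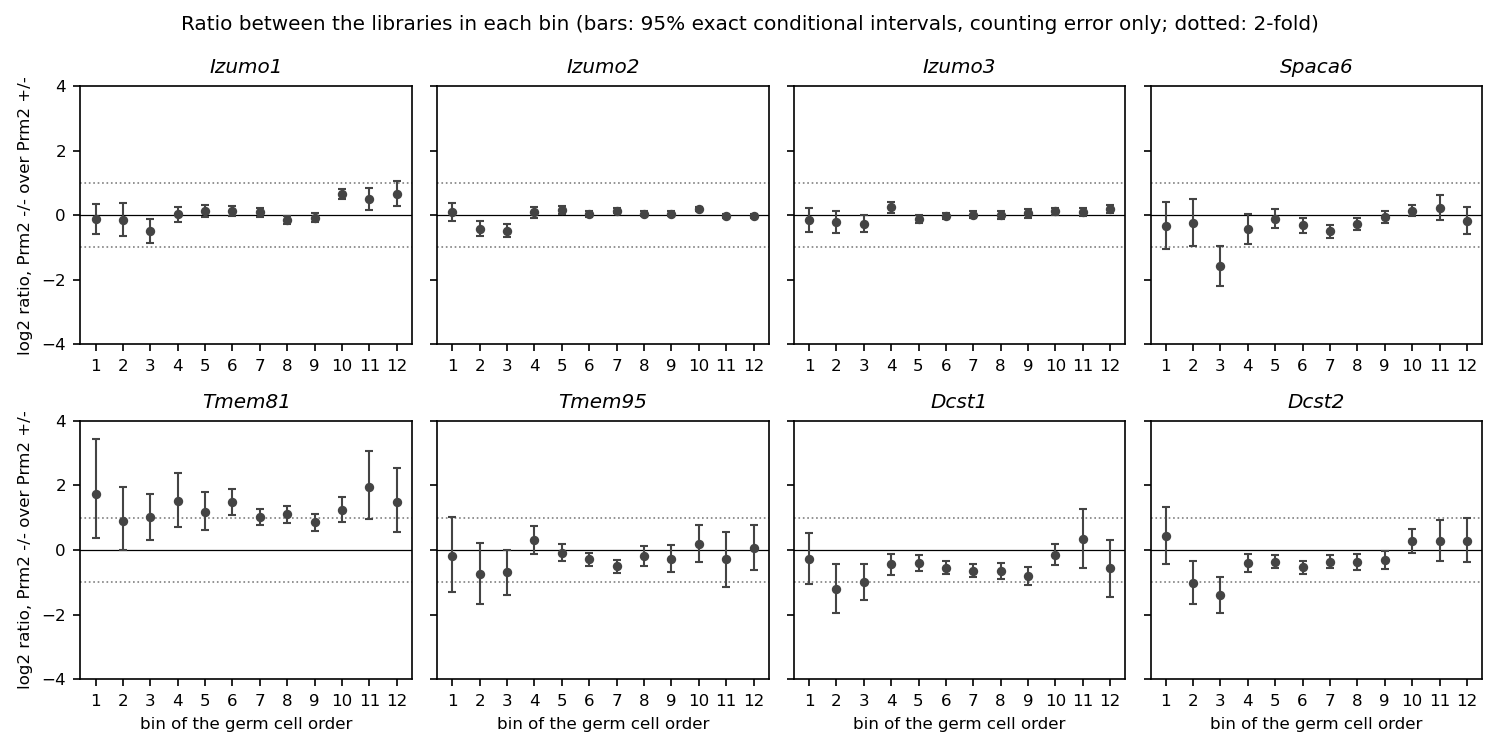
Log2 ratio of the Prm2 -/- over the Prm2 +/- level (vertical axis, 95% exact conditional intervals for counting error) in each of the 12 bins (horizontal axis) for the 8 genes; dotted lines mark 2-fold. The points of Tmem81 lie above 0 in all 12 bins, of which bins 1 to 4, 11 and 12 are near its level in Sertoli-like cells, those of Dcst1 and Dcst2 below 0 in bins 2 to 9, and those of Izumo1 at 0.49 to 0.67 in bins 10 to 12. The part of free RNA in the Izumo1 ratios of bins 11 and 12 was not tested.

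In elongating-spermatid-like cells (2285 heterozygous and 3622 knockout cells, clusters 1, 13, 14 and 20) 2 of the 8 members, Izumo2 and Izumo3, passed the size rule. Neither was 2-fold apart (0 of 2), while 7.83% of all 2464 genes were, and the median ratio of all genes was 0.24. The scaling decides directions in this class. Of the genes 2-fold apart 169 were higher and 24 lower in the knockout library on CPM, against 22 higher and 87 lower with TMM factors, which scale on a trimmed mean over genes and shift each ratio here by -0.49 (by 0.03 in round-spermatid-like cells). Izumo2 was at 621 CPM (608 to 633) in heterozygous and 643 CPM (632 to 655) in knockout cells, a log2 ratio of 0.05 (0.01 to 0.09) that became -0.44 with TMM factors. Izumo3 was at 161 and 184 CPM, a ratio of 0.19 (0.11 to 0.27) that became -0.31. Both CPM ratios were below that median.

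The other 6 members were under the minimum there. Izumo1 was at 20.6 and 32.8 CPM, a log2 ratio of 0.67 (0.47 to 0.87) that was 0.18 with TMM factors. Its UMIs per 1000 cells were 138 and 171, beside 63.7 and 98.9 in Sertoli-like cells, and the part of free RNA was not tested. Spaca6 was at 23.6 and 27.4 CPM, a ratio of 0.22 that became -0.28. Tmem81 was at 2.41 and 7.68 CPM from 37 and 145 UMIs, a ratio of 1.67 (1.14 to 2.23), and 1.17 with TMM factors. Its 16.2 and 40.0 UMIs per 1000 cells were near the 16.6 and 35.5 of Sertoli-like cells, so this is a background level and no change is read from it. Tmem95, Dcst1 and Dcst2 were between 5.03 and 8.63 CPM in both libraries, with intervals of the ratio that held 0. The clusters were again filled unequally: cluster 14 had 8.84% of the heterozygous class and 30.04% of the knockout one. Within clusters 1, 13 and 14 the ratio of Izumo1 was 0.49, 0.47 and 0.33, each lower than in the class as a whole. The 12 Sertoli marker genes summed to 54.7 CPM in heterozygous and 315 CPM in knockout elongating-spermatid-like cells, with 3 and 1 of them at 0, against 45.0 and 168 CPM in round-spermatid-like cells, and their part in these ratios was not tested.

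In late-spermatocyte-like cells 2 members passed the size rule and 0 of 2 were 2-fold apart, against 2.03% of all 3889 genes. Izumo2 was at 58.3 CPM in heterozygous and 75.01 CPM in knockout cells there and Izumo3 at 65.5 and 74.5 CPM. Both lay well under their spermatid levels. Tmem81, under the minimum at 2.41 and 6.36 CPM from 24 and 99 UMIs, had a log2 ratio of 1.40 (0.75 to 2.11), from which no change is read because its 23.4 and 36.6 UMIs per 1000 cells were near those of Sertoli-like cells.

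The levels of each gene over the named classes had the same highest class in both libraries. Izumo2 was highest in elongating-spermatid-like cells and the other 7 in round-spermatid-like cells. For Izumo1 the order in the heterozygous library was round-spermatid-like (146.4 CPM), Sertoli-like (49.0), late-spermatocyte-like (30.3), early-spermatocyte-like (24.3), elongating-spermatid-like (20.6) and Leydig-like (16.3). The last 3 had overlapping intervals. The high place of Sertoli-like droplets in that order comes with few UMIs per cell, a median of 957. Clusters left unnamed held 5103 heterozygous and 4229 knockout cells of differing makeup, in which the ratio of Tmem81 was 0.33 (0.02 to 0.65) and those of the other 7 genes ran from -0.63 to -1.74.

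For each member the genes with the most similar course were sought over the 24 bin sums among 6534 genes, leaving out predicted and clone-based names. Izumo1 was most like Fndc11 (r = 0.99), Spaca4, which encodes an acrosomal membrane protein tied to sperm binding to the egg (0.99), and Best1 (0.99). Spaca6 was most like Pln, Lrrc52, a sperm potassium channel subunit, and Pfn3, a testis profilin (all 0.98). Tmem81 was most like Tbc1d9, Lhx2 and Asb15 (all 0.96). These r values describe likeness of levels over stages and libraries together.

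The early group had other partners. Tmem95 was most like Fcnaos, Muc16 and Ank2 (all 0.98), Dcst1 like Tmem225, Slc44a5 and the sperm calcium channel gene Catsper3 (all 0.98), and Dcst2 like Akap14 (0.99), Mmel1 and Mgat4c (both 0.98). Izumo2 was most like Gpd2 (1.00), Capza3, a testis actin capping subunit (1.00), and Tmem247 (0.99). Izumo3 was most like Tsga13, Cylc2, which encodes a cylicin of the sperm head calyx (both 0.99), and Fam83e (0.99). With the 4 named germ cell classes in place of bins, 11 of the 24 genes named in these lists were again among the 10 most similar.

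Other genes of fertilization were counted in the same classes. Of 12 further genes tied to fusion, 11 passed the size rule in round-spermatid-like cells, 7 with a ratio above 0 and 4 below, and 0 were 2-fold apart. Their median ratio was 0.09 against 0.00 for all genes. The widest were Cd46, a complement regulator of the acrosomal membrane (35.2 and 59.7 CPM, 0.76), Izumo4, a secreted family member (264 and 189 CPM, -0.49), and Spaca1, an acrosomal membrane protein (593 and 805 CPM, 0.44). Cd46 passed the minimum through the knockout library alone, so its place as the widest and its part in the counts are not read. In elongating-spermatid-like cells 8 passed, 5 above and 3 below 0 (2 and 6 with TMM factors), with a median of 0.08 against 0.24 for all genes. Spaca1 (0.72), Plcz1, the sperm factor that activates the egg (165 and 239.7 CPM, 0.54), and Tssk6, a kinase needed for IZUMO1 to move on the sperm head (2340 and 1724 CPM, -0.44), were the widest there. Spaca1, at 44.0 and 72.7 CPM, passed there through the knockout library alone, so its place and its part in the counts are not read. Izumo4 was highest in bin 4, ahead of all 8 members.

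Of 3 egg-side partners none passed the size rule in either class. Izumo1r had 0 UMIs in round- and elongating-spermatid-like cells of both libraries. Cd9 was at 6.28 and 11.2 CPM in round-spermatid-like cells and Cd81 at 3.62 and 7.45 CPM.

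Of 16 genes of ADAM3 maturation and passage through the oviduct and zona, 13 passed in round-spermatid-like cells, 9 above and 4 below 0, with a median of 0.24 and 0 of 13 2-fold apart. Prss37 (0.54), Adam1a (0.51) and Pmis2 (0.42) were the widest. In elongating-spermatid-like cells 11 passed, 10 above and 1 below 0, with a median of 0.53 against 0.24 for all genes. With TMM factors 10 passed, 7 above and 3 below 0 and 0 of them 2-fold apart. On CPM 2 of 11 were 2-fold higher in the knockout library, as were 6.86% of all genes in this class. They were Adam2, a fertilin subunit (24.2 and 65.8 CPM, 1.44), and Clgn, its chaperone calmegin (60.2 and 128.7 CPM, 1.10). Adam2 and Ly6k (39.25 and 51.8 CPM) passed the minimum through the knockout library alone, so nothing is read from these counts or the median. Cmtm2a was at 0.95.

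Of 16 acrosome genes 15 passed in round-spermatid-like cells, 10 above and 5 below 0, with a median of 0.11 and 0 of 15 2-fold apart. Zp3r (0.51), Hyal5 (0.45) and Spaca7 (0.45) were the widest. Pick1 (51.1 and 43.7 CPM) passed the minimum through the heterozygous library alone. In elongating-spermatid-like cells 9 passed, 8 above and 1 below 0 (5 and 4 with TMM factors), with a median of 0.68 and 0 of 9 2-fold apart. Spaca7 (0.92), Zpbp (0.84) and Acrv1 (0.77) were the widest. Zpbp (41.5 and 74.2 CPM), Zpbp2 (42.3 and 68.7 CPM) and Acrv1 (40.1 and 68.3 CPM) passed the minimum through the knockout library alone. Nothing is therefore read from these counts, the median or the place of Zpbp and Acrv1 among the widest. Like Izumo1, Zpbp and Acrv1 were highest earlier in the order, in bins 5 or 6 and in bin 8.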

How the data were processed

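The authors deposited UMI counts per gene and cell barcode as whole numbers. Cell Ranger 7.1.0 is named per the file headers, and Seurat 4.1.0 and mm10 per the submitters' processing notes. No barcode had under 500 UMIs, and 0 columns belonged to other samples. Members and gene lists were chosen with earlier results of these data known.

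Cells needed 500 or more UMIs, 250 or more genes and no more than 20% of UMIs from mitochondrial genes. Doublets called by Scrublet in each library were removed (expected 12.0% and 18.0%), and cells were clustered together in scanpy 1.11.5 (2000 variable genes without the members, 30 components, 20 neighbours, Leiden resolution 1). Clusters were named from fixed markers by a rule set after the data were seen. Germ cells were ordered by diffusion pseudotime on genes scaled within library, from the cluster with the highest spermatogonial score, since no separate spermatogonia-like class formed. UMIs were summed per class or bin, scaled to CPM and given 95% Poisson, conditional binomial or Clopper-Pearson intervals. The ratio code was checked on simulated counts. Named genes were the members, up to 3 per list with the largest absolute ratio, the 3 most similar genes, and neighbours that overlap a member or lie next to one 2-fold apart. Positions are from GENCODE M21. Alternatives covered filters, clustering, scaling (TMM, edgeR), bins and thinning.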

Additional observations from a re-analysis of the deposited data

Results flagged for a closer look

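Izumo2 and Izumo3 differed in direction between cell classes, with both counting intervals clear of 0, and the difference between classes was not tested. Izumo2 had a log2 ratio of knockout over heterozygous of 0.33 in round-spermatid-like and -1.11 (-1.35 to -0.88) in Sertoli-like cells, at 278 and 128 CPM in the latter. Izumo3 had 0.06 and -1.14 (-1.49 to -0.79), at 131 and 59.8 CPM in Sertoli-like cells. Dcst1 and Dcst2 were also lower in knockout Sertoli-like cells, at -1.30 (-2.24 to -0.41) and -0.91 (-1.74 to -0.10), as they were in round-spermatid-like cells. The summed level of 14 elongating-spermatid markers in Sertoli-like cells was 61124 CPM for heterozygous and 20854 CPM for knockout cells, and its part in these ratios was not tested. The targeted gene Prm2 is among these markers, so the knockout sum is lowered by the genotype itself. In elongating-spermatid-like cells the sum was 234643 and 161145 CPM. Per 1000 Sertoli-like cells the UMIs of Izumo2 were 361 and 299.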

How the results depend on the processing

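The count of 1 member 2-fold apart in round-spermatid-like cells, Tmem81, was the same under all 13 alternatives (3 of them added after the data were seen), and its ratio there ran from 1.19 to 1.44. In elongating-spermatid-like cells the count of 0 became 1 without the CPM minimum, the added member being Tmem81 at its background level, and was otherwise the same. Of 176 ratios recomputed, 137 lay within their counting interval and 39 did not. Spaca6 ran from -0.28 to 0.11 and Izumo1 from 0.02 to 0.33 in round-spermatid-like cells. TMM factors moved all ratios in elongating-spermatid-like cells by -0.49, which put Izumo2 at -0.44 and Izumo3 at -0.31. With 8 wider bins the libraries' highest bins were at most 1 bin apart for 8 of 8 members, a tolerance chosen after the values were seen, and 6 of 8 lay within the narrower width of 1 of the 12 bins. All 64 positions of the highest level stayed within 1 bin. Of the 24 most similar genes, 11 were found again with named classes in place of bins. Low counts limit Tmem81, Tmem95, Dcst1 and Dcst2 in bins 1 to 3 and 11 to 12. No paired analysis was possible because each genotype has 1 library.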
